A study of Mus musculus with 6 samples.

Results

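Replication-dependent histone genes code for the bulk of the histone protein that wraps newly copied DNA, and this report follows them through arrays of mouse multipotent progenitors with and without latexin. A feature, the array's unit of measurement, was taken as a member when its gene entry held a histone gene whose older name starts with Hist1h, Hist2h, Hist3h or Hist4h. The platform's gene table uses the newer names (H1f2, H2bc4 and the like), so the older names were reached through each gene's Entrez identifier. This gave 58 members of 23410 features with at least 1 gene symbol. Of these, 31 carry a single gene symbol and 27 carry several. By histone type there were 5 features of H1, 8 of H2A, 18 of H2B, 13 of H3 and 13 of H4, and 1 feature split between H1 and H2B. A shared feature was given the type of most of its histone genes.

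The RNA came from 2 groups of 3 arrays, wild type (WT) and Lxn-/-. Lxn-/- mice carry a deletion of exons 2 to 4 of the gene for latexin, an inhibitor of carboxypeptidases, and are labelled as lacking the protein. All mice were C57BL/6, 8 to 12 weeks old and labelled female, and the labels name no treatment. Each sample was about 100000 bone marrow cells pooled from 10 to 20 mice, sorted as lineage-negative, Sca1-positive and c-Kit-positive cells that also carried CD34 and a receptor the series text writes as Flt2. The sample labels call them multipotent progenitors, although the series title and its cell count name long-term stem cells. Values are log2 expression values on whole-transcript arrays. Differences are Lxn-/- minus WT on the log2 scale with a standard error (SE), p and 95% interval from limma. Each array is 1 pool, so the tests rest on the spread between 3 pools a group. In limma the spread of each feature is drawn toward that of all features. The SE of a very tight feature is therefore wider than its own pools alone would give.

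H2A, H2B, H3 and H4 form the protein core of the nucleosome, and H1 binds the linker DNA between nucleosomes. The replication-dependent genes for them lie in dense clusters, have no introns and are transcribed mainly in S phase. Their mRNAs end in a conserved stem-loop in place of a poly(A) tail, and the stem-loop binding protein Slbp carries them through processing, translation and decay. Coding sequences of most genes within a core histone type are close to identical, and an array feature often lists many of them. Multipotent progenitors cycle more often than long-term stem cells do.

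The gene table held 70 such genes. The Hist1 cluster on chromosome 13 has 56 of them, Hist2 on chromosome 3 has 10, Hist3 on chromosome 11 has 3 and Hist4 on chromosome 6 has 1. Of the 70 genes, 31 had a feature of their own, 38 appeared only on shared features and 1 (H2ac14) appeared on none. The H3 genes were the most entangled, with 9 of 12 only on shared features, followed by H2A with 14 of 20. All but 1 of 6 H1 genes had a feature of their own, H1f4 being the exception.

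The start regions of 7 genes are printed below, since 4 of them (H4c6, H4c3, H2bc3 and H2ac4) had the lowest WT array 2 values relative to the other WT arrays and 3 (H1f2, H2bc8 and H3c4) stood high in Lxn-/- array 3, as described further on. These genes were chosen after their values were seen. Each stretch has 170 bases, from 150 before to 20 past the annotated start, taken from RefSeq promoters on build GRCm38.p6 and written 5′ to 3′ on the gene's strand. Capitals mark matches to 5 searched motifs. They are the general promoter box CCAAT, the TATA box searched as TATAAA, the octamer searched as ATTTGCAT, the box of H1 genes searched as AAACACA, and the core of the H4 element called site II searched as GGTCCG. The TATA box was searched on the sense strand only and the others on both strands, so a match on the other strand appears as the reverse complement. No matches overlapped in the printed stretches.
H4c6, chr13:23551649-23551818 (- strand): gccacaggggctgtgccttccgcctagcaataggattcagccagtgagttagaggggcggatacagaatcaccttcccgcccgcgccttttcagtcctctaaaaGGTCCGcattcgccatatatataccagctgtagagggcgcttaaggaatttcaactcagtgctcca
H4c3, chr13:23698439-23698608 (- strand): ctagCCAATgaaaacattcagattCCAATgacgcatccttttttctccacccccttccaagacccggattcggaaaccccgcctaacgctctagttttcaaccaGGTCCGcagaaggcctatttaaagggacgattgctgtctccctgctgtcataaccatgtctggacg
H2bc3, chr13:23746584-23746753 (+ strand): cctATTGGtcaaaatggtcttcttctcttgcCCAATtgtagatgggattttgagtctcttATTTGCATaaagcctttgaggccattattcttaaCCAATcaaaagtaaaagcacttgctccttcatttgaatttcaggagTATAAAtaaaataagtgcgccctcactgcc
H2ac4, chr13:23750938-23751107 (+ strand): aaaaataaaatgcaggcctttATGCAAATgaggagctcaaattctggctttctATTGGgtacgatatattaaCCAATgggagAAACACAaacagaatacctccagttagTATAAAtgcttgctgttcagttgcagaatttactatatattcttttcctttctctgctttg
H1f2, chr13:23738657-23738826 (+ strand): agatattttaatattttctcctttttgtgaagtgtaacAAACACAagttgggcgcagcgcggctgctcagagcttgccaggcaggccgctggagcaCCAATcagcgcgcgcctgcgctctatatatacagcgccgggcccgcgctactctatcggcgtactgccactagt
H2bc8, chr13:23571250-23571419 (+ strand): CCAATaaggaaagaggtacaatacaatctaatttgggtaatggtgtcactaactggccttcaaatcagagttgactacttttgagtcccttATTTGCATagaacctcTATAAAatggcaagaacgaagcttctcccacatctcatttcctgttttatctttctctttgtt
H3c4, chr13:23575613-23575782 (+ strand): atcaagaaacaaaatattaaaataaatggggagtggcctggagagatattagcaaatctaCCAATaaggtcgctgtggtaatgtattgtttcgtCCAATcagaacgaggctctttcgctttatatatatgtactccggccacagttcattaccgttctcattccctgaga

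The stretches show how the histone types differ in the letters before their start sites. H4c6 and H4c3 both hold the site II core at position -46 from the start. The shares that follow were counted over longer promoter windows, which reach further on both sides of the start than the printed stretches. Among all H4 promoters 11 of 12 held the site II core (91.7%), against 8.25% of 32851 promoters of that longer length. The octamer, the motif bound by Oct1 (Pou2f1), stood at -90 in H2bc3, at -59 in H2bc8 and on the other strand at -129 in H2ac4. It was found in 7 of 17 H2B promoters (41.2%) and 7 of 18 H2A promoters (38.9%), against 1.74% of all promoters. The H1 box stood at -112 in H1f2 and was present in 5 of 6 H1 promoters (83.3%), against 7.18% of all. CCAAT was in all promoters of H1, H2A, H2B and H3 genes that the table holds and in 3 of 12 H4 promoters (25%), against 37.4% of all. The TATA box was in 30 of 63 histone promoters (47.6%), against 8.32% of all. Promoters were found for 62 of the 70 genes, 1 gene having more than 1 start. For 10 pairs of genes on opposite strands these longer promoter windows overlap. All 10 pairs join an H2A with an H2B gene, among them H2ac8 with H2bc8 and H2ac1 with H2bc1. A match is a description of these letters and not of a bound site.

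The arrays were checked before the histone features were compared. Xist, the RNA of the inactive X chromosome, was 13.13 to 13.23 in the WT arrays and 6.86, 13.17 and 5.85 in Lxn-/- arrays 1, 2 and 3. The Y-linked gene Eif2s3y was 3.68 to 3.97 in the WT arrays and 8.57, 3.83 and 9.36 in the Lxn-/- arrays, so 2 of 3 pools labelled female carried Y-linked signal. Lxn itself was 8.56, 8.70 and 8.58 in WT and 8.03, 8.53 and 8.61 in Lxn-/- (change -0.22, SE 0.15, adjusted p = 0.459 in limma). Which exons its feature covers is not known here, so Lxn does not check the genotype, and the group is called the arrays labelled Lxn-/-. The heat-shock gene Hspa1a was 8.19 to 8.41 in WT and 10.32, 8.80 and 11.33 in Lxn-/-. Of 5 progenitor markers 4 had a feature of their own (Kit, Flt3, Cd34 and Cd48), with means of 10.76 to 13.40. The mean of 4 mast cell and basophil markers was 9.68 to 9.94 in WT and 8.36, 9.48 and 9.61 in Lxn-/-, and that of 4 granulocyte markers was 10.47 to 11.13 over all arrays. The part of sex, stress or other cells in the histone values was not tested, and in bulk samples fewer cells of a type and less RNA per cell cannot be told apart.

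Histone features showed no detectable difference between the genotypes. None of the 58 passed at an adjusted p of 0.05 in limma (smallest 0.433), where 0% of all tested features passed. Without Lxn-/- array 2, which leaves the Lxn-/- arrays with Y-linked signal, 145 of 23410 features passed, and no histone feature did. So small a share leaves little to read from 0 of 58 histone features. None had an unadjusted p under 0.05 (smallest 0.143, H3c4), against a background of 14.3% of all features (1185 higher and 2161 lower in Lxn-/-). That number was 1 without WT array 1 and 2 without Lxn-/- array 1. The 3 values of each group failed to overlap in 1 of 58 (H1f3), against 21.6% of all features. Many members are high features, 29 with a mean above 12 and 26 above 13, where such calls were rarer. Of all 829 features above 12, 16 had an unadjusted p under 0.05 in limma and 109 did not overlap. Above 13 the numbers were 1 and 53 of 298. The changes ran from -0.12 to 0.35, with a median of 0.010, and 35 of 58 were positive. Over all tested features the median was -0.038 and 42.2% were positive. The intervals of single members reached from -0.64 to 0.85, so the arrays leave room for changes of that size in the widest cases.

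**Figure D1:**
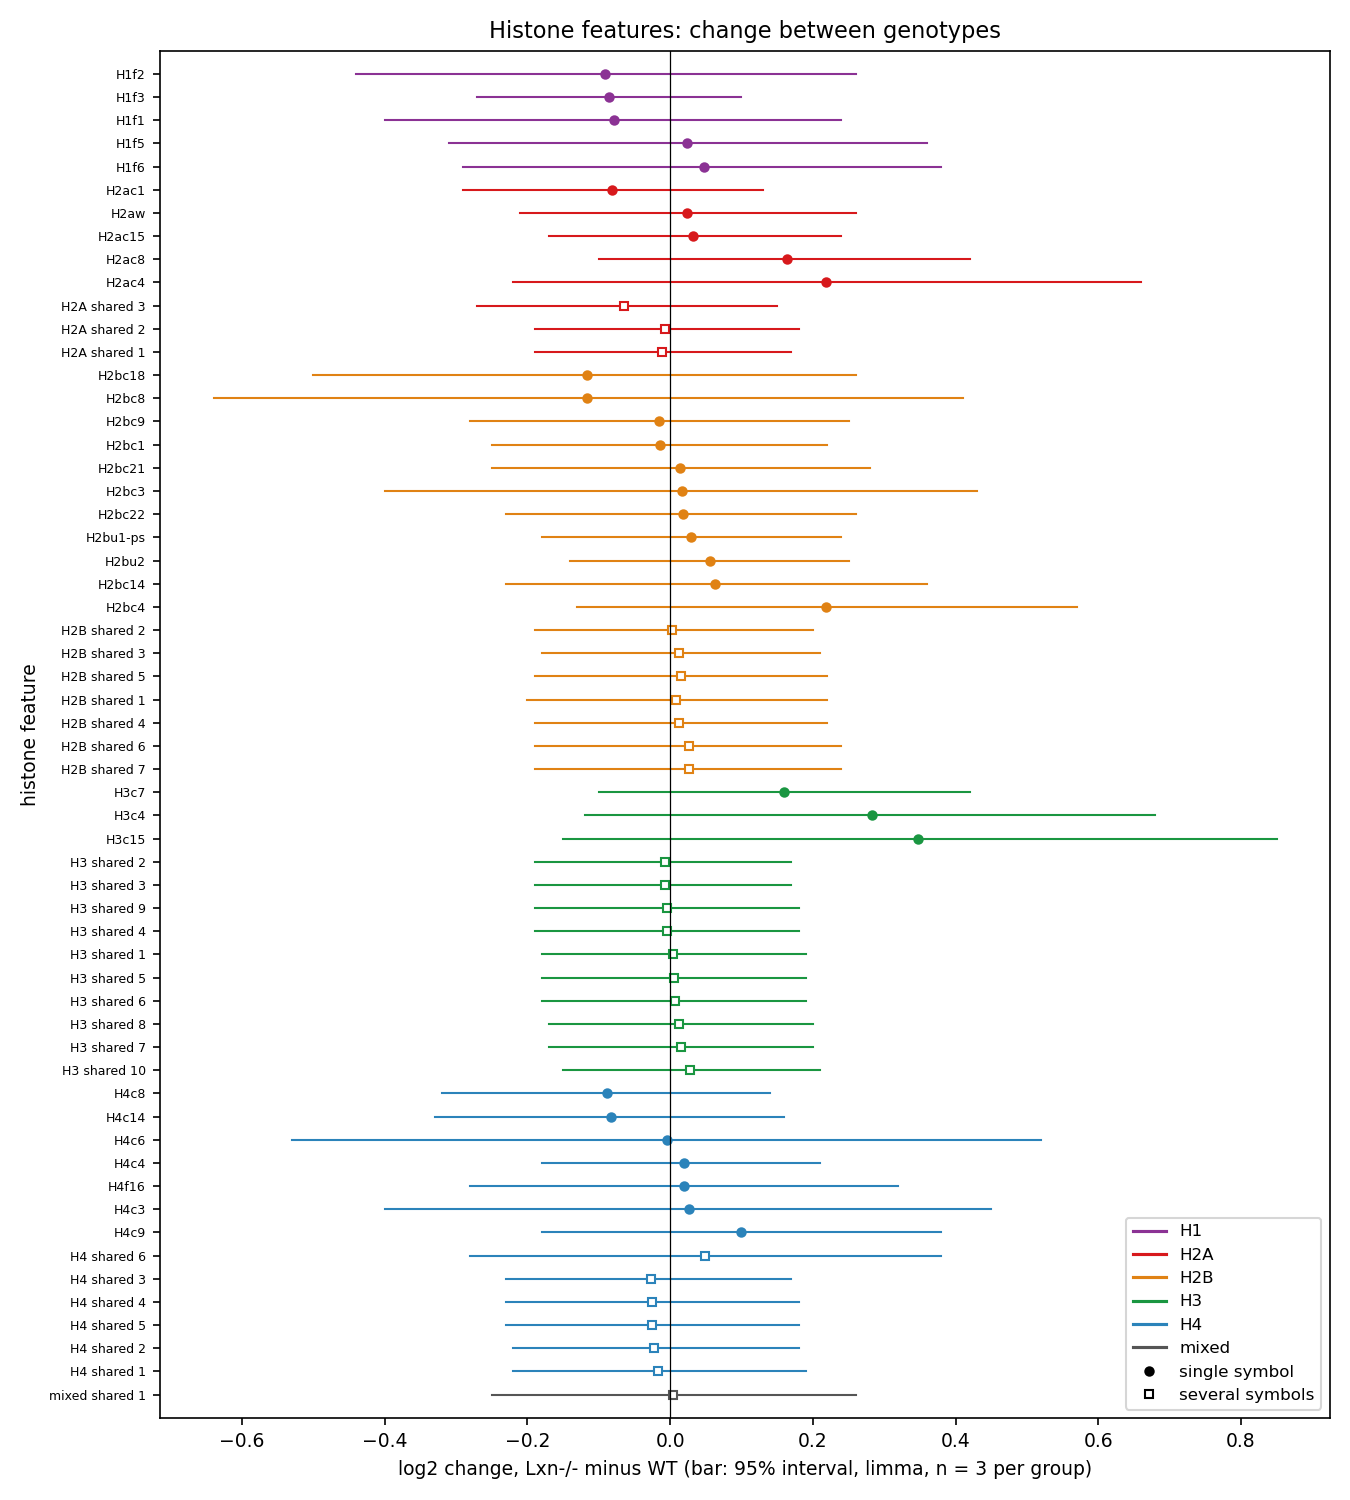
Log2 change (Lxn-/- minus WT, horizontal axis) of each of the 58 histone features, with its 95% interval from limma (n = 3 per group). Colours give the histone type, circles features of 1 symbol and open squares features of several. Every interval crosses 0, and those of H3c15 (-0.15 to 0.85) and H2bc8 (-0.64 to 0.41) are among the widest.

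The direction of the median depended on single arrays, their weights and the scaling. With WT array 2 left out, 11 of 58 changes were positive and the median was -0.046. It was -0.008 without Lxn-/- array 1 (26 of 58 positive) and -0.001 without Lxn-/- array 2 (27 of 58). With arrays weighted by their quality it was -0.020 (14 of 58). The median stayed positive without WT array 1 (0.033), WT array 3 (0.025) or Lxn-/- array 3 (0.024). After quantile normalization 17 of 58 were positive (median -0.024), and with each array centred on its median 49 of 58 were positive (median 0.067). Centring moved the median of all features from -0.038 to 0.019. Relative to all features the histone median was 0.048 in both the deposited and the centred values. Over the settings tried this difference ran from -0.062 (features above the median level) to 0.079 (without WT array 1). Without Lxn-/- arrays 1 and 3, those with Y-linked signal, 29 of 58 were positive and the median was 0.000. No direction is therefore given for the family.

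The features that answer to many genes were the tightest measurements of the family. Of the 27 shared features, 24 carry 11 or more symbols. They are 2 of H2A, 7 of H2B, 10 of H3 and 5 of H4, and their values belong to no single gene. Both H2A features also list the H3 gene H3c4 and H2ax, which is read further on as a replacement histone. H2A shared 1 lists H2aj as well. Their changes lay between -0.03 and 0.03, with intervals within -0.23 to 0.24. Their mean values were 13.28 to 14.23, close to the highest value of any tested feature, 14.78. How the scale responds at this height was not tested. The highest minus the lowest array differed by a median of 0.13 for the 24, against 0.46 for the 31 single-gene features and 0.39 for all tested features. High features in general had a small range, with a median of 0.18 over the 298 tested features with a mean above 13. These 24 are not 24 independent measurements, since features of a type list nearly the same genes. The features H4 shared 4 and H4 shared 5 had identical values in every array, as did H2B shared 6 and H2B shared 7.

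**Figure D2:**
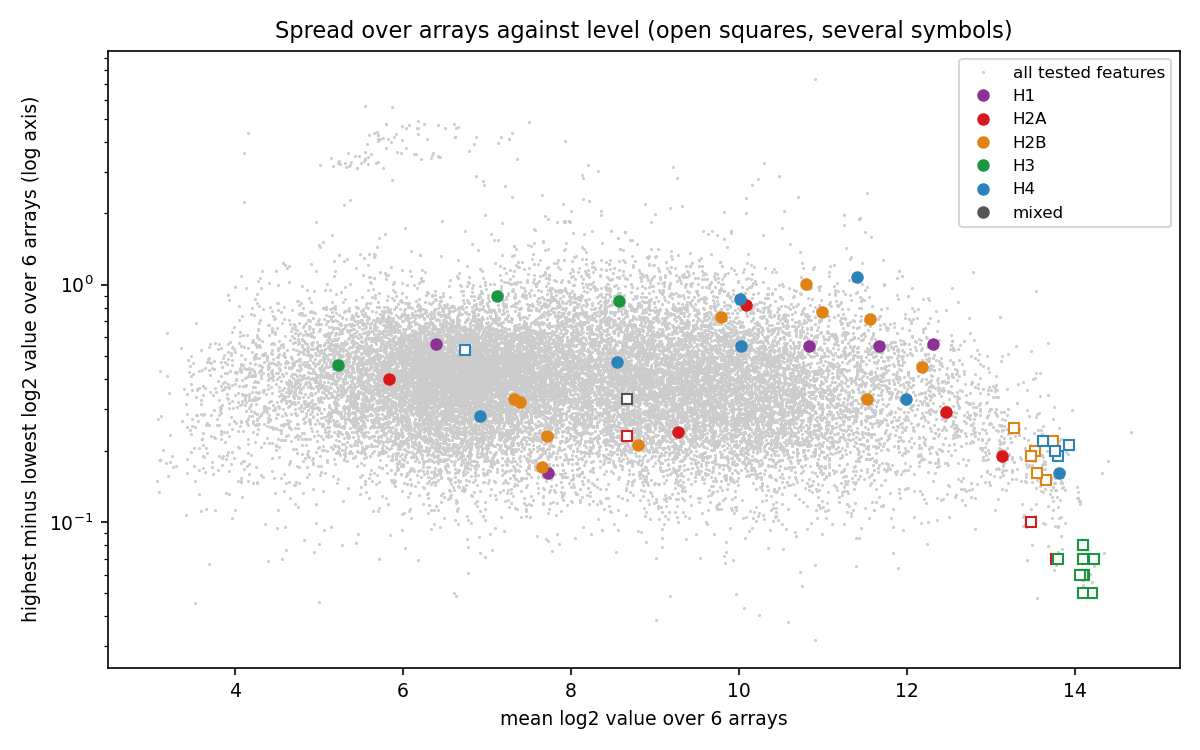
Highest minus lowest log2 value over the 6 arrays (vertical, log axis) against the mean log2 value (horizontal) for all tested features (grey) and the histone features (coloured by type, filled for 1 symbol, open for several). The 10 widely shared H3 features sit at the lower right with ranges of 0.05 to 0.08, while single-gene features lie at 0.16 to 1.08.

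The widely shared features of each type moved in their own way over the arrays. The mean of the 10 H3 features was 14.12, 14.07 and 14.08 in WT and 14.13, 14.08 and 14.07 in Lxn-/-, which is an almost flat line. The 5 H4 features averaged 13.82, 13.67 and 13.88 in WT and 13.78, 13.78 and 13.74 in Lxn-/-, with WT arrays 2 and 3 as the extremes. The 7 H2B features averaged 13.61, 13.42 and 13.56 in WT and 13.56, 13.57 and 13.50 in Lxn-/-. The 2 H2A features averaged 13.67, 13.59 and 13.64 in WT and 13.65, 13.63 and 13.59 in Lxn-/-. In the last 3 types WT array 2 was lowest or tied for lowest, and the genotypes overlapped in all 4.

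Among the 5 linker histones with a feature of their own, 3 had lower and 2 had higher means in Lxn-/-, with a median change of -0.079. H1f3, a somatic H1, was 7.80, 7.76 and 7.73 in WT and 7.67, 7.73 and 7.64 in Lxn-/-. This is the only member whose groups did not overlap, by less than the second decimal (change -0.08, SE 0.08, adjusted p = 0.592 in limma). H1f2, a somatic H1 whose gene can also give polyadenylated mRNA, was 10.92, 10.71 and 11.02 in WT and 10.58, 10.67 and 11.13 in Lxn-/-. Its Lxn-/- values enclosed those of WT (change -0.09, SE 0.15). H1f1, a further somatic H1, was 12.30, 12.19 and 12.56 in WT and 12.46, 12.35 and 12.00 in Lxn-/- (change -0.08, SE 0.14). H1f5 was 11.75, 11.34 and 11.89 in WT and 11.78, 11.77 and 11.50 in Lxn-/- (change 0.02, SE 0.15). H1f6, the H1 of the testis, was 6.11, 6.67 and 6.31 in WT and 6.57, 6.25 and 6.41 in Lxn-/- (change 0.05, SE 0.15). H1f6 and H2bc21 were the only members of the family with their highest value in WT array 2. H1f4 is measured only with the H2B gene H2bc6, on a feature at 8.73, 8.48 and 8.78 in WT and 8.57, 8.81 and 8.61 in Lxn-/-.

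H2A features split evenly, with 4 higher and 4 lower means and a median change of 0.009. H2ac8, which lies head to head with H2bc8, was 5.87, 5.66 and 5.73 in WT and 5.70, 6.06 and 5.98 in Lxn-/- (change 0.16, SE 0.12). Arrays 2 and 3 of Lxn-/- were above every WT array and array 1 was not. Without Lxn-/- array 1 the change was 0.27 (unadjusted p = 0.0234, adjusted p = 0.164 in limma). H2ac15 was 13.21, 13.02 and 13.14 in WT and 13.18, 13.20 and 13.08 in Lxn-/-, with all 6 values within 0.19. H2ac1, a testis H2A, was 9.40, 9.25 and 9.31 in WT and 9.35, 9.16 and 9.20 in Lxn-/- (change -0.08, SE 0.09). H2ac4 was 10.29, 9.47 and 10.18 in WT and 10.27, 10.25 and 10.07 in Lxn-/-, so that a single WT array set its change of 0.22 (SE 0.19). The gene H2aw of the Hist3 cluster was 12.55, 12.29 and 12.52 in WT and 12.48, 12.37 and 12.58 in Lxn-/-. Its second feature, shared with Trim17, was 8.73, 8.63 and 8.74 in WT and 8.70, 8.51 and 8.69 in Lxn-/- (change -0.06, SE 0.09).

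H2B had the most single-gene features, 11, of which 7 had higher and 4 lower means in Lxn-/- (median change 0.017). H2bc4, another gene known to give polyadenylated as well as stem-loop mRNA, was 11.04, 10.59 and 11.02 in WT and 10.96, 10.99 and 11.36 in Lxn-/- (change 0.22, SE 0.15, 95% interval -0.13 to 0.57). The low value was WT array 2 and the high one Lxn-/- array 3, with the other 4 arrays between 10.96 and 11.04. H2bc18, of the Hist2 cluster, was 9.80, 9.50 and 10.23 in WT and 9.84, 9.70 and 9.63 in Lxn-/- (change -0.12, SE 0.17). H2bc14 was 12.32, 11.87 and 12.25 in WT and 12.25, 12.30 and 12.07 in Lxn-/- (change 0.06, SE 0.13). H2bc8 was 11.01, 10.68 and 10.87 in WT and 10.11, 10.97 and 11.12 in Lxn-/-. Its Lxn-/- arrays 1 and 3 stood 1.01 apart, wider than the whole WT range. H2bc3 was 11.72, 11.10 and 11.82 in WT and 11.71, 11.60 and 11.38 in Lxn-/- (change 0.02, SE 0.18). The testis gene H2bc1, at 7.81, 7.58 and 7.78 in WT and 7.73, 7.80 and 7.58 in Lxn-/-, differed by -0.01 (SE 0.10). H2bc9, H2bc21, H2bc22, H2bu2 and H2bu1-ps had changes of -0.02 to 0.06. The shared feature with the largest positive statistic, H2B shared 6, was 13.37, 13.12 and 13.30 in WT and 13.29, 13.31 and 13.28 in Lxn-/- (change 0.03, SE 0.09).

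The 3 single-gene H3 features had the largest median of any type, 0.283, and none passed the test. H3c4 was 8.61, 8.39 and 8.30 in WT and 8.50, 8.51 and 9.15 in Lxn-/- (change 0.28, SE 0.18, 95% interval -0.12 to 0.68). Only Lxn-/- array 3 lay outside the WT range. H3c15, of the Hist2 cluster, was 7.32, 6.64 and 6.86 in WT and 6.82, 7.54 and 7.50 in Lxn-/- (change 0.35, SE 0.22). Lxn-/- array 1 fell among the WT arrays and the other 2 lay above them. H3c15 and H2ac8 were the only members with an unadjusted p under 0.05 in any setting tried. For H3c15 this was so without WT array 1 (change 0.54), without Lxn-/- array 1 (0.58), without Lxn-/- arrays 1 and 3 (0.60) and with arrays weighted by their quality (0.44). The adjusted p in limma was 0.141 to 0.426 in these fits. For H2ac8 it was so in the last 3 of these fits, with changes of 0.27, 0.31 and 0.22 and an adjusted p in limma of 0.164 to 0.384. H3c7 was 5.17, 5.08 and 5.20 in WT and 5.20, 5.17 and 5.54 in Lxn-/- (change 0.16, SE 0.11). All 3 genes are also listed on each of the 10 shared H3 features, whose changes were -0.01 to 0.03. The extremes of these were H3 shared 10, at 13.82, 13.77 and 13.77 in WT and 13.84, 13.80 and 13.79 in Lxn-/-, and H3 shared 2, at 14.24, 14.19 and 14.20 in WT and 14.24, 14.19 and 14.19 in Lxn-/-.

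H4 features had 5 higher and 8 lower means in Lxn-/- (median change -0.017), and all 13 had their lowest value in WT array 2. H4c6 was 11.44, 10.85 and 11.93 in WT and 11.29, 11.34 and 11.57 in Lxn-/-. Its range of 1.08 was the widest of the family, and its means differed by less than 0.01 (SE 0.23). H4c3 was 10.06, 9.54 and 10.41 in WT and 10.01, 9.98 and 10.09 in Lxn-/- (change 0.03, SE 0.19). The lone gene of the Hist4 cluster, H4f16, had the same shape, with 10.05, 9.72 and 10.27 in WT and 10.07, 9.99 and 10.02 in Lxn-/-. In these 3 genes all Lxn-/- arrays lay inside the WT range. H4c9 was 8.66, 8.22 and 8.62 in WT and 8.56, 8.55 and 8.69 in Lxn-/- (change 0.10, SE 0.13), and H4c8 was 7.00, 6.80 and 7.08 in WT and 6.96, 6.83 and 6.83 in Lxn-/- (change -0.09, SE 0.10). H4c14, of the Hist2 cluster, was 12.11, 11.82 and 12.15 in WT and 12.01, 11.96 and 11.86 in Lxn-/-. H4c4 was 13.83, 13.70 and 13.86 in WT and 13.83, 13.82 and 13.80 in Lxn-/- (change 0.02, SE 0.09), a pattern close to that of the shared H4 features. Of these, H4 shared 3 was 13.81, 13.66 and 13.86 in WT and 13.77, 13.75 and 13.73 in Lxn-/- (change -0.03, SE 0.09). A feature of H4c17 and H4c11 alone, H4 shared 6, was 6.98, 6.45 and 6.72 in WT and 6.56, 6.89 and 6.84 in Lxn-/- (change 0.05, SE 0.15).

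The clearest pattern in the family was between WT arrays and not between genotypes. Against the WT mean of each feature, the median histone value was 0.039, -0.120 and 0.037 in WT arrays 1, 2 and 3, and 0.027, 0.000 and -0.025 in the Lxn-/- arrays. WT array 2 held the lowest value of 42 of 58 features (72.4%), among them 13 of 13 H4 and 16 of 18 H2B features, against 16.3% of all features. Features with high values in general shared this. WT array 2 was lowest in 64.4% of the 829 features with a mean above 12, and in 72.8% of the 298 with a mean above 13. The related gene lists described further on shared it too. WT array 2 was lowest in 66.7% of 27 S-phase genes and 52.6% of 19 histone chaperones. For 20 genes of histone mRNA processing the share was 50%, and for 9 replacement histones 55.6%. The gap to the mean of WT arrays 1 and 3 was -0.83 for H4c6, -0.76 for H2ac4, -0.70 for H4c3 and -0.67 for H2bc3, the 4 genes whose promoters are printed first. For all H4 features but H4c9 and H4 shared 6, WT array 3 held the highest value.

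**Figure D3:**
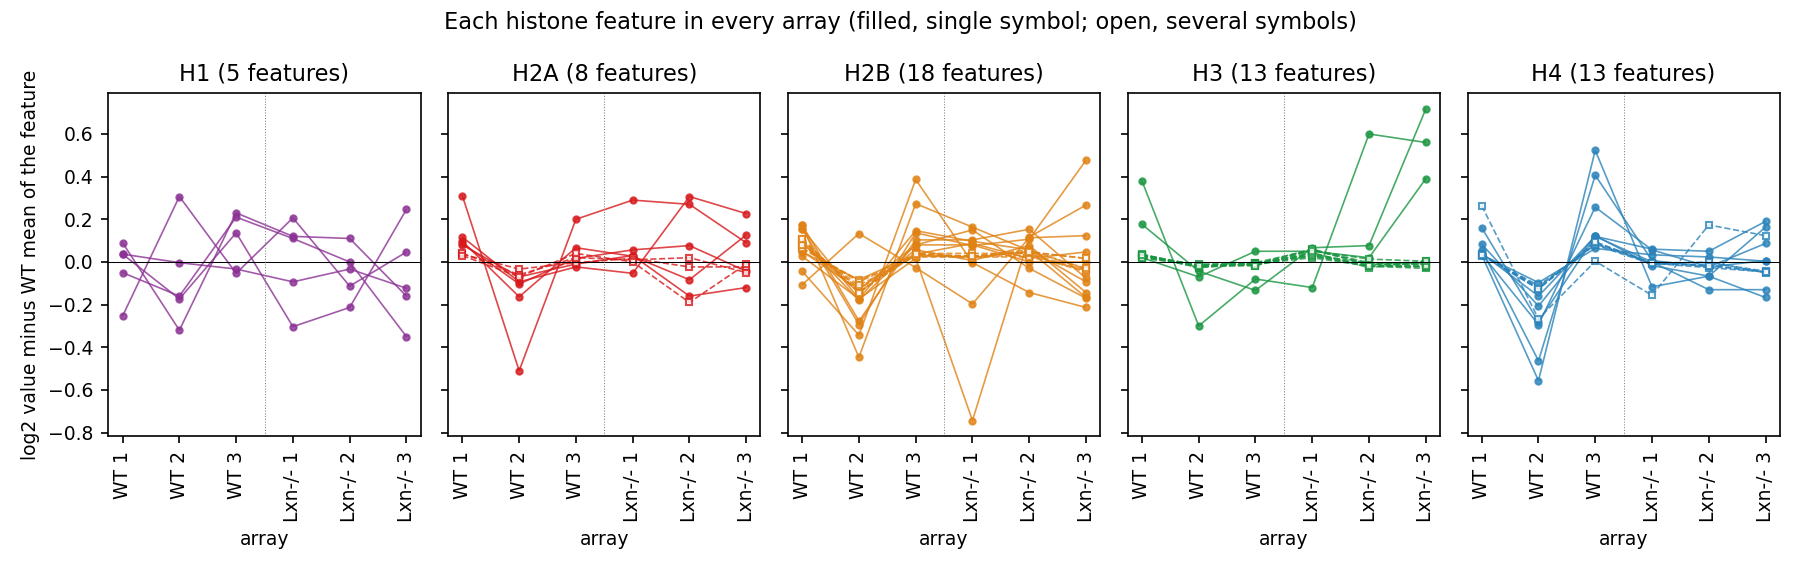
Log2 value of each histone feature minus its WT mean (vertical) in every array (horizontal), 1 panel per type, lines joining the values of 1 feature, filled circles for 1 symbol and open squares for several. The feature of H1f4 and H2bc6 is not drawn. WT array 2 is lowest for 13 of 13 H4 features and 16 of 18 H2B features, and the widely shared H3 features stay near 0 throughout.

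The histone features were also set beside other features of high level. Of the 829 features with a mean above 12, 82.1% had a positive change (median 0.058), while 17 of the 29 histone features among them did (58.6%, median 0.005). Above 13 the shares were 84.9% of 298 (median 0.048) and 15 of 26 histone features (57.7%, median 0.005). These shares have no test, since histone features of a type repeat each other.

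Lxn-/- array 3 held the highest value of 7 of 58 histone features (12.1%), a share below the 15.3% of all tested features. All 7 carry 1 symbol, and none of the 27 shared features was highest there. The 7 were H1f2, H2aw, H2bc4, H2bc8, H3c4, H3c7 and H4c9, named after their values were seen. Array 3 exceeded the WT mean by 0.71 in H3c4, 0.48 in H2bc4, 0.39 in H3c7, 0.27 in H2bc8 and 0.25 in H1f2. It stood 1.01 above Lxn-/- array 1 in H2bc8, 0.65 in H3c4 and 0.56 in H1f2. Array 3 also had the highest Hspa1a and the lowest Xist value of the 6, and the part of either in these genes was not tested. In the same 7 genes Lxn-/- array 1 differed from the WT mean by -0.74 (H2bc8) to 0.07 (H2bc4).

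**Figure D4:**
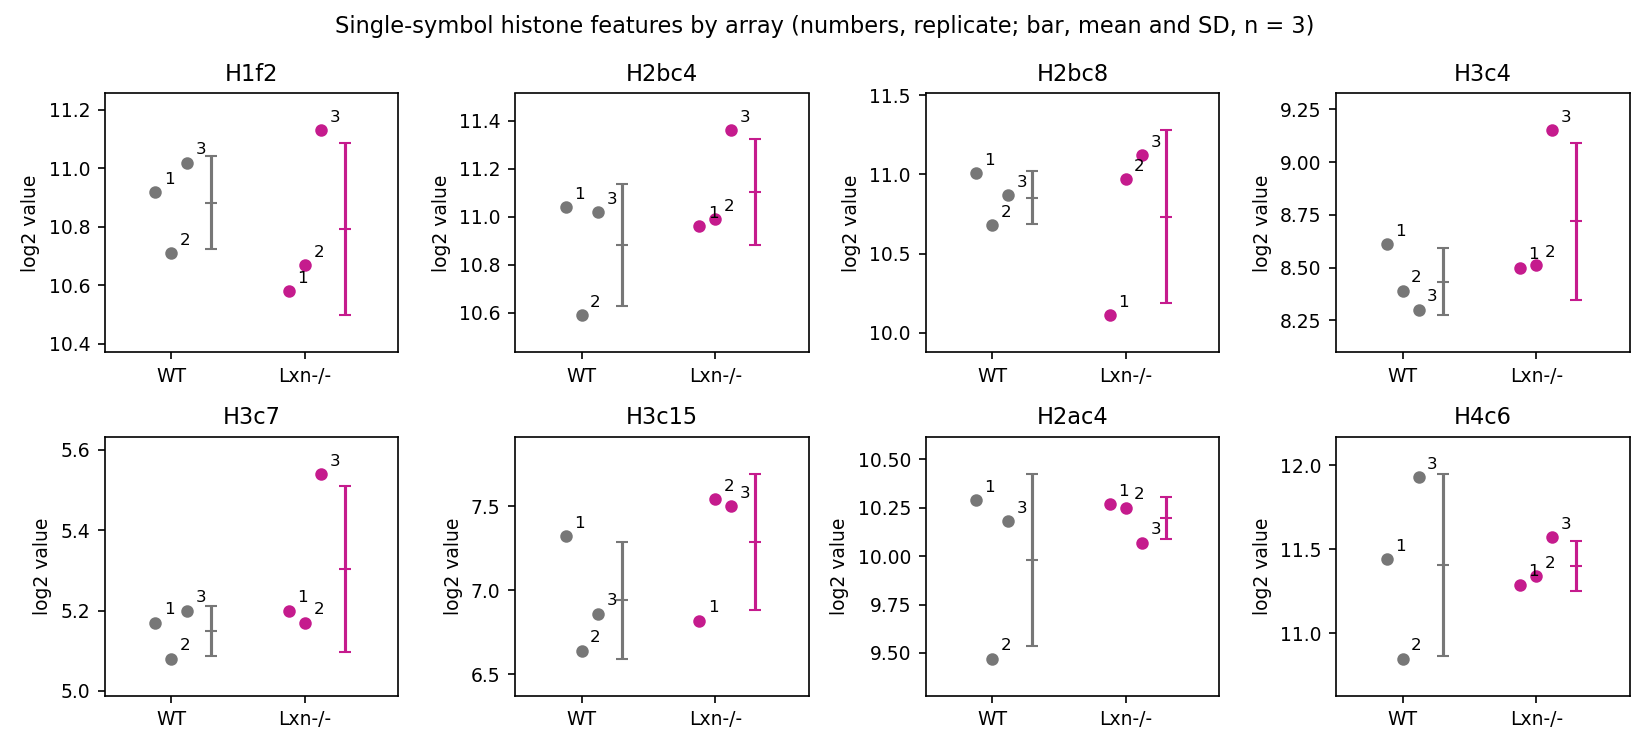
Log2 values of 8 single-gene histone features in each array (points numbered by replicate), with mean and SD beside each group (n = 3). Lxn-/- array 3 is highest in H1f2, H2bc4, H2bc8, H3c4 and H3c7, Lxn-/- array 1 is low in H2bc8 and H3c15, and WT array 2 is lowest in H2ac4 and H4c6.

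Genes that make, carry or use histones were read beside the histone features. For reference, the median change was 0.067 over all features above the median level. Positive changes made up 42.2% of all tested features and 82.1% of those with a mean above 12. The genes of the processing list had means of 7.26 to 11.53, below that level. Among 20 measured genes for histone mRNA synthesis and 3′ processing, 18 had higher means in Lxn-/- (median change 0.149). None passed at the adjusted threshold, and 3 had an unadjusted p under 0.05 (background 14.3% of all features). Slbp, the stem-loop binding protein, was 9.96, 9.86 and 10.01 in WT and 10.33, 10.13 and 10.11 in Lxn-/- (change 0.25, SE 0.10, adjusted p = 0.34 in limma). The groups did not overlap in 10 of the 20 genes, Slbp among them, against 21.6% of all features. Npat, the cyclin E target that drives histone transcription, was 9.80, 9.51 and 9.54 in WT and 9.74, 9.76 and 9.81 in Lxn-/- (change 0.15, SE 0.10). Casp8ap2, a partner of Npat in histone locus bodies, was 9.29, 8.97 and 9.19 in WT and 9.43, 9.38 and 9.47 in Lxn-/- (change 0.28, SE 0.10). Ncbp1, the large subunit of the nuclear cap-binding complex, was 11.46, 11.29 and 11.41 in WT and 11.82, 11.49 and 11.69 in Lxn-/- (change 0.28, SE 0.11). The number under 0.05 was 1 without Lxn-/- array 1 or array 3. After quantile normalization the list's median was 0.073 and none was under 0.05, and with arrays centred it was 0.205 and 8 were.

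Of 19 histone chaperones and related proteins, 18 had higher means in Lxn-/- (median change 0.110), 3 with an unadjusted p under 0.05 (background 14.3% of all features) and none past the adjusted threshold in limma. Nasp, which guards soluble H3 and H4, was 8.94, 8.55 and 8.81 in WT and 9.36, 8.96 and 9.44 in Lxn-/- (change 0.49, SE 0.15, adjusted p = 0.34). Asf1a, which hands H3 and H4 to the assembly factors, was 8.73, 8.73 and 8.93 in WT and 9.06, 9.01 and 9.12 in Lxn-/- (change 0.27, SE 0.09). Of 9 replacement histones, a list of histone genes taken as not tied to replication, 6 had higher means (median change 0.096). Macroh2a2 was 8.06, 7.49 and 8.31 in WT and 8.73, 8.66 and 8.33 in Lxn-/- (change 0.62, SE 0.20), and the linker histone H1f10 was 9.49, 9.82 and 9.69 in WT and 8.70, 9.66 and 9.39 in Lxn-/- (change -0.42, SE 0.22). Quantile normalization brought the medians to 0.033 for the chaperones and 0.020 for the replacement histones. The chaperone number under 0.05 was 1 without WT array 2 or without Lxn-/- array 3, and 2 replacement histones had an unadjusted p under 0.05 without Lxn-/- array 2.

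All 27 measured S-phase genes had higher means in Lxn-/- (median change 0.147), 5 with an unadjusted p under 0.05 (background 14.3% of all features) and none past the adjusted threshold in limma. Positive changes made up 42.2% of all tested features and 82.1% of those with a mean above 12. The median of all features above the median level was 0.067. Rrm2, a subunit of ribonucleotide reductase, was 10.39, 10.29 and 10.46 in WT and 10.99, 10.62 and 10.69 in Lxn-/- (change 0.39, SE 0.12, adjusted p = 0.34). Orc1, of the origin recognition complex, was 7.67, 7.57 and 7.62 in WT and 8.33, 7.76 and 8.12 in Lxn-/- (change 0.45, SE 0.14). Against the WT mean, the median of the list was 0.065, -0.090 and 0.019 in WT and 0.320, 0.092 and 0.110 in Lxn-/-. Lxn-/- array 1 held the highest value of 22 of the 27 genes (81.5%), against 17.8% of all tested features and 26.7% of those with a mean above 12. In that array the median of the histone features was 0.027, and the difference between the lists was not tested. Without array 1 the S-phase median was 0.100, and after quantile normalization 0.060. The number under 0.05 was 3 without WT array 2, 8 without Lxn-/- array 2 and 0 without Lxn-/- arrays 1 and 3. Array 1 also had the lowest mast cell and basophil markers and carried Y-linked signal.

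**Figure D5:**
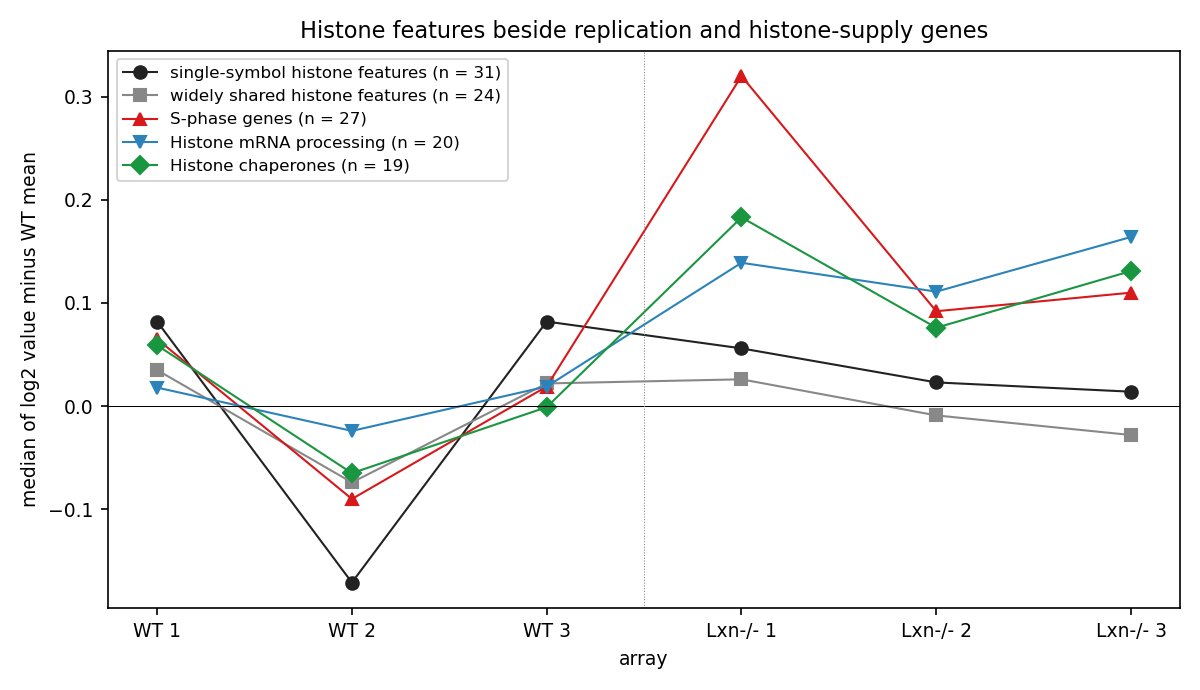
Median log2 value minus WT mean (vertical) in each array (horizontal) for single-gene histone features, widely shared histone features and 3 gene lists, with the number of features or genes in brackets. The S-phase median reaches 0.320 in Lxn-/- array 1, while the single-gene histone median there is 0.056 and that of the widely shared features 0.026.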

How the data were processed

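Total RNA (100 ng) of sorted progenitors was hybridised to Affymetrix MoGene 1.0 ST arrays, 3 pools per genotype, per the labels' protocols. The authors deposited 1 table of log2 values, which the series text says were normalized by RMA. The submitters' processing notes name Partek 6.0 and RMA, while genome build, scan dates and RMA settings are not given in the sources. RMA brings the arrays to a common distribution, so a change in total RNA per cell is not measured. The log2 scale was taken from the range of the values, 2.93 to 14.78.

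The platform's probe table names a single gene on 21789 features, several genes on 1621 and no gene on 12147. Of the single-gene features, 21698 could be found in the RefSeq gene table (GRCm38.p6) by Entrez identifier, and histone members were found through its older names. All 23410 features with a symbol were compared in 1 two-sided limma fit (version 3.58.1, R 4.3.3, lmFit then eBayes, no covariate). P-values were adjusted by Benjamini-Hochberg over all of them, with a threshold of 0.05. Groups were taken from the sample titles. The number of arrays limits the precision. Figures used matplotlib 3.10.9 in Python 3.11.15.

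The members and gene lists were chosen with earlier results of these data known, so lists are described by counts and medians. Features named by rule were, in each type, those with the largest positive and negative moderated t (single and shared apart) and the single-gene feature with the highest mean, every H1 gene, up to 12 histone features with an unadjusted p under 0.05, the strongest members of each list, Slbp and Npat, and Lxn and sex-linked genes as checks. Other histone features are named after their values were seen. Shared features are numbered within their type by mean value. Alternatives were each array left out, Lxn-/- arrays 1 and 3 left out, quantile normalization, centring, array weights, trend and robust settings, all rows, features above the median level, an unmoderated test, a stricter p, the replicate number as a block, and single, shared, merged or non-testis features. The fit was tested on simulated data.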

Additional observations from a re-analysis of the deposited data

How the results depend on the processing

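No histone feature passed the adjusted threshold in any alternative run. At most 145 of all features did in any of them, so this tells little about the histone features. The WT and Lxn-/- arrays share replicate numbers. The deviations of same-numbered arrays correlated at 0.076, -0.008 and -0.006, and those of differently numbered arrays at -0.051 to 0.052. These values show no clear pairing of the pools, and with 3 arrays a group they cannot exclude it. With the replicate block, 1 of all features passed, 2 replacement histones and 9 S-phase genes had an unadjusted p under 0.05, and no histone feature did. Without Lxn-/- arrays 1 and 3, which leaves 1 array assumed to vary like the WT arrays, 3 of all features passed. Histone features under 0.05 were then 2, the median of the processing list was 0.111, and 0 genes of the processing, chaperone and S-phase lists were under 0.05. Features under 0.05 were 1812 after quantile normalization, 5614 with array weights, 1356 among features above the median level and 615 at a p under 0.01. Array weights gave 2 histone features under 0.05. Quantile normalization gave list medians of 0.073 (processing), 0.033 (chaperones) and 0.020 (replacement), with 0, 2 and 2 members under 0.05, and 3 in the S-phase list. Centring gave medians of 0.205 (processing) and 0.153 (replacement), with 8 processing and 9 S-phase genes under 0.05. The cause was not tested for any of these.

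Leaving out 1 array at a time, 0 to 145 features passed, 1628 to 5541 were under 0.05, and 0 to 2 histone features were. The median of the processing list ran from 0.099 to 0.152, and members under 0.05 numbered 1 to 3 (processing), 1 to 3 (chaperones), 1 to 2 (replacement) and 3 to 8 (S-phase). Signs of small changes turned over the same fits. H1f6 ran from -0.080 to 0.199, H1f1 from -0.173 to 0.056, H1f2 from -0.262 to 0.017 and H1f5 from -0.134 to 0.137. H2ac15 ran from -0.019 to 0.074, H2bc18 from -0.289 to 0.075, H2bc14 from -0.076 to 0.150 and H2B shared 6 from -0.046 to 0.081. H3 shared 2 ran from -0.023 to 0.007, H4c9 from -0.038 to 0.180, H4c4 from -0.029 to 0.050, H4 shared 6 from -0.084 to 0.180 and H4 shared 3 from -0.085 to 0.015. Without Lxn-/- arrays 1 and 3, H1f6 was -0.113 and H1f1 0.001. Quantile normalization turned H1f5 (-0.061), H2ac15 (-0.011), H2bc14 (-0.021), H2B shared 6 (-0.021), H3 shared 2 (0.000), H4c8 (0.040) and H4c4 (-0.008). Array weights turned H1f5 (-0.083), H2bc14 (-0.011), H2B shared 6 (-0.006) and H4c4 (-0.010). Centring turned H3 shared 2 (0.049) and H4 shared 3 (0.030). With 3 arrays a group, the data leave room for changes within the 95% intervals given, and shared features cannot show a change of 1 gene among many.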
